A study of Mus musculus with 34 samples.

Results

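The aryl hydrocarbon receptor pathway was followed through 7 genes in hearts of mice that had carbon black nanoparticles placed in the airways. The genes are the receptor Ahr, its partner Arnt, the repressors Ahrr and Tiparp, and the target enzymes Cyp1a1, Cyp1b1 and Nqo1. Each was found by matching the RefSeq accession of the array probes to the gene, without use of measured values, and each had 1 probe. They are 7 of 33269 genes on the array, and 6 of them entered the test, which covered 19798 genes. Of the genes tested, 12348 had a symbol and 7450 were known by a probe accession only, each of which counted as a gene. Cyp1a1 did not pass the filter on dim probes.

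The study used 34 dual-colour arrays, each with heart RNA from 1 female C57BL/6 mouse. The mice arrived at 5 to 6 weeks of age and were given 162 µg of Printex 90, a carbon black nanoparticle, into the trachea in a volume of 40 µl. Controls received the vehicle alone, which all groups shared: 0.9% NaCl in MilliQ water with 10% by volume of cell-free lung lavage fluid from C57BL/6 mice. Hearts were taken 1, 3 or 28 days later, from 6 control and 6 exposed mice at day 1 and from 6 control and 5 exposed mice on each later day. A random section that held both ventricles gave the Cy5-labelled RNA of a sample, and Universal Mouse Reference RNA carried Cy3 on each array. All 6 cardiomyocyte markers checked, among them Myh6 and Tnni3, were well above background on all 34 arrays. Levels are given as log2 ratios of heart over reference, after background correction with an offset of 50 and loess normalisation. A difference of 1 is a 2-fold change on this scale, and a value of 0 does not mean equal raw signal. For Arnt the median background-subtracted signal was 28.5 in heart and 59 in the reference, with mean ratios of -0.11 in controls and -0.02 in exposed hearts. The offset makes differences of dim genes smaller. The ratios compare arrays within a gene and not 1 gene with another.

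The receptor sits in the cytoplasm with heat shock proteins until a ligand such as a polycyclic aromatic hydrocarbon, a dioxin or a tryptophan product binds it. It then enters the nucleus, pairs with Arnt and binds DNA at a short core motif to switch on enzymes that oxidise foreign compounds. Ahrr and Tiparp are themselves induced by the receptor and restrain it. Combustion-derived particles can carry such hydrocarbons on their surface, and the induction of cytochrome P450 enzymes of family 1 is the usual readout of the pathway.

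Arrays differed in the levels of tissue markers, within both the control and the exposed arm. A score of adipocyte markers (Cidec, Plin1, Adipoq, Cfd and Retn; 5 of 6 listed markers were tested) was the mean deviation of their log2 ratios from the median of all arrays. On 5 arrays it lay between -4.72 and -4.52, and on the other 29 arrays between -2.01 and 1.68. Among controls these were replicate 2 of day 1, replicate 4 of day 3 and replicate 2 of day 28, and among exposed mice replicate 6 of day 1 and replicate 3 of day 28. Carbon black day 1 replicate 6 also had the lowest median correlation with its own group, 0.77 over genes. Of these markers only Cfd was well above background on all 34 arrays, and Retn, the dimmest, on 28. By group, the score ran from -4.59 to 1.68 in control day 1, -4.72 to 1.28 in carbon black day 1, -4.65 to 1.09 in control day 3, -1.85 to 1.30 in carbon black day 3, -4.59 to 0.97 in control day 28 and -4.52 to 1.43 in carbon black day 28. The 5 arrays lowest in adipocyte markers were low in other tissue markers too, with smooth muscle scores from -3.08 to -2.18. Their atrial scores ran from -4.23 to -3.53, except on carbon black day 28 replicate 3, at 0.10. In bulk tissue, fewer cells of a type and less RNA per cell cannot be told apart. Array position on the slide was uneven: 12 of the 18 controls lay at position 1, and 10 of the 16 exposed arrays at position 4, where there was no control.

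The receptor's core motif GCGTG was searched for on both strands (CACGC on the other) in the 250 bases before the start of each gene, from RefSeq sequences of build GRCm38.p6. Such sequences were at hand for 6 of the 7 genes, all but Ahr. The core was present in 5 of the 6, against 28.2% of 32851 promoters of the same length; Ahrr had 3 matches and Arnt, Cyp1a1, Cyp1b1 and Tiparp had 1 each. The longer form TNGCGTG, which contains the core, was present only in Ahrr among the 6, against 4.1% of all promoters. The windows of the 6 genes held from 53.2% (Nqo1) to 75.2% (Tiparp) of G and C, against a median of 52.4% over all promoters. The part of base composition in the share with a core was not tested. The 250 bases are shown for Ahrr (chr13:74292332-74292581, minus strand), Cyp1b1 (chr17:79715062-79715311, minus strand) and Nqo1 (chr8:107403206-107403455, minus strand), 3 genes whose levels varied together or in opposition between arrays. They run 5′ to 3′ along the gene's strand, with the core in capitals:
Ahrr: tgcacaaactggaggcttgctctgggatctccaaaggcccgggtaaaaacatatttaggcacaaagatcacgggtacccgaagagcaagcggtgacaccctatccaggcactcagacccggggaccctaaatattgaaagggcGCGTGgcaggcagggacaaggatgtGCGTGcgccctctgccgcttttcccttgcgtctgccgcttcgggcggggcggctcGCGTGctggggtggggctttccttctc
Cyp1b1: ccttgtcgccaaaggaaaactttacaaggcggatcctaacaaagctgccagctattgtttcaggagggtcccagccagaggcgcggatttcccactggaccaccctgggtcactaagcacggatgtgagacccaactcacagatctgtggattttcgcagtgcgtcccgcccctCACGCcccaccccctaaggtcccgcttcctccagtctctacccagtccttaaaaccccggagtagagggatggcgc
Nqo1: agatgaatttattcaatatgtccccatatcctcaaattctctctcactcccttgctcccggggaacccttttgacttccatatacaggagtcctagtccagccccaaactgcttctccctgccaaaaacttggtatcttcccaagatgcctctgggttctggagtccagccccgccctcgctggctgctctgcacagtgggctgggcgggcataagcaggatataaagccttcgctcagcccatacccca
The 3 cores of Ahrr began 107, 82 and 27 bases before the start, and the core of Cyp1b1, on the opposite strand, 76 bases before it. The window of Nqo1 held no match to these 5 letters. A match in this window is a description of the letters and not of receptor binding, which was not measured.

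**Figure D1:**
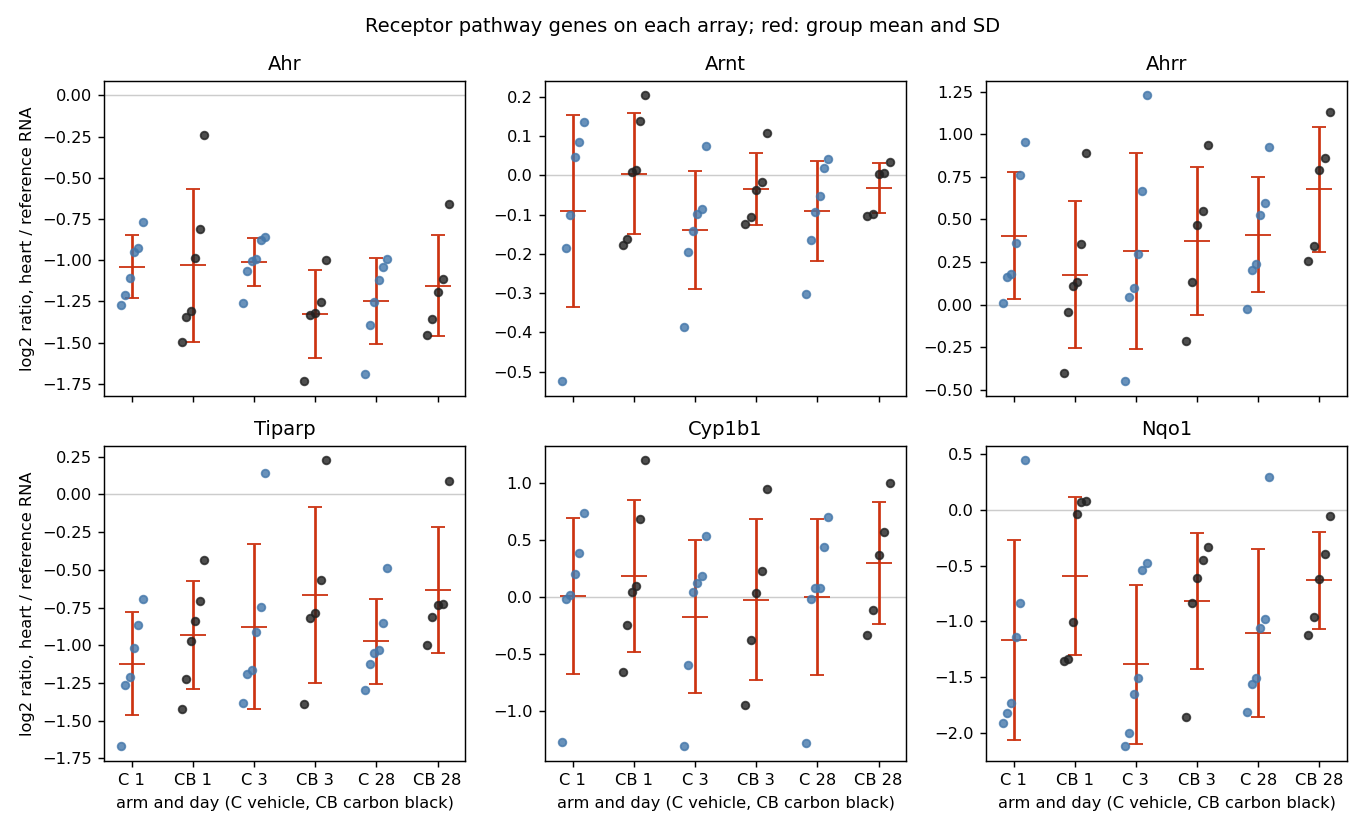
Log2 ratio of heart over reference RNA for 6 receptor pathway genes on each array, in controls (C, blue) and carbon black groups (CB, black) at days 1, 3 and 28; each panel has its own vertical scale, and red bars give the group mean and SD. The arrays of the 2 arms overlapped for each gene on each day, and the Nqo1 means of all 3 exposed groups (-0.60, -0.82 and -0.63) lay above those of all 3 control groups (-1.17, -1.38 and -1.103).

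The first question was whether the receptor and its partner differed between exposed and control hearts. No difference passed the test for either gene, and neither arm stood apart on any day. Ahr (chromosome 12, NCBI Gene 11622) was well above background on 34 of 34 arrays. At day 1 its log2 ratio was lowest at -1.27, median -1.03 and highest at -0.77 in controls, and lowest at -1.50, median -1.15 and highest at -0.24 in exposed mice. The exposed arrays at day 1 thus spanned a wider range, and the array at -0.24 was carbon black day 1 replicate 6. At day 3 the controls ran from -1.26 through a median of -0.999 to -0.86, and the 5 exposed arrays were at -1.25, -1.33, -1.74, -0.998 and -1.32. Only 1 of these 5 exposed arrays lay above the control mean. At day 28 the controls ran from -1.69 through -1.18 to -0.995, and the exposed arrays were at -1.19, -1.45, -1.35, -1.12 and -0.66.

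The log2 fold change of Ahr, carbon black minus control, was 0.01 ± 0.16 (SE) at day 1, -0.32 ± 0.17 at day 3 and 0.09 ± 0.17 at day 28. The day 3 value had a limma p of 0.0763 (Benjamini-Hochberg adjusted over all genes, 0.501), with a 95% interval from -0.67 to 0.04. Over all days the change was -0.07 ± 0.10 (limma adjusted p = 0.767; interval -0.27 to 0.13). The probe of Ahr was printed as 10 spots per array, which gave a check of spot error: the median SD between spots of an array was 0.14, against 0.29 between arrays of a group. Taken singly, the 10 spots gave all-days changes from -0.19 to 0.07, and 3 of the 10 were above 0. The sign of the all-days change was the opposite under median centring (0.18), which shifted the median of all genes by 0.19.

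Arnt (chromosome 3, NCBI Gene 11863), the dimerisation partner shared with the hypoxia factors, was dim: it was well above background on 22 of 34 arrays. By day, these were 4 of 6 control and 6 of 6 exposed arrays at day 1, 2 of 6 and 4 of 5 at day 3, then 3 of 6 and 3 of 5 at day 28. The background-subtracted signal of Arnt ran from 2 to 80, and the part of this low signal in its ratios was not tested. At day 1 its log2 ratio ran from -0.53 through a median of -0.03 to 0.14 in controls and from -0.18 through 0.01 to 0.20 in exposed hearts. At day 3 the controls ran from -0.39 through -0.12 to 0.07, and the exposed arrays were at -0.02, -0.11, -0.12, -0.04 and 0.11. All 5 exposed arrays at day 3 lay above the control mean, and 1 lay above the highest control. At day 28 the controls ran from -0.30 through -0.07 to 0.04, and the exposed arrays were at -0.10, 0.00, 0.03, -0.10 and 0.01. The all-days change was 0.09 ± 0.06 (limma adjusted p = 0.445; interval -0.03 to 0.20), with 12 of 16 exposed arrays above the control mean of their day.

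The repressors came next. Ahrr (chromosome 13, NCBI Gene 11624), which competes with the receptor for Arnt, was well above background on 32 arrays. At day 1 its log2 ratio ran from 0.01 through a median of 0.27 to 0.95 in controls and from -0.40 through 0.12 to 0.89 in exposed hearts. At day 3 the controls ran from -0.45 through 0.20 to 1.23, and the exposed arrays were at 0.47, 0.93, 0.13, -0.22 and 0.55. At day 28 the controls ran from -0.03 through 0.38 to 0.92, and the exposed arrays were at 0.26, 0.34, 1.13, 0.86 and 0.79. The control range thus covered nearly all exposed arrays, with 1 exposed array above it at day 28 and 2 below it at day 1. The changes were -0.23 ± 0.24 at day 1, 0.06 ± 0.25 at day 3 and 0.27 ± 0.25 at day 28. The difference between the days had a limma p of 0.367, and the all-days change was 0.03 ± 0.14 (limma adjusted p = 0.940; interval -0.26 to 0.32).

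Tiparp (chromosome 3, NCBI Gene 99929), a mono-ADP-ribosyltransferase that marks the receptor for breakdown, was well above background on all 34 arrays. At day 1 its log2 ratio ran from -1.67 through a median of -1.12 to -0.69 in controls and from -1.42 through -0.90 to -0.44 in exposed hearts. At day 3 the controls ran from -1.38 through -1.04 to 0.14, and the exposed arrays were at -0.82, -1.39, -0.57, 0.23 and -0.78. At day 28 the controls ran from -1.30 through -1.04 to -0.49, and the exposed arrays were at -0.81, -0.73, -0.73, -0.996 and 0.09. In all, 12 of the 16 exposed arrays lay above the control mean of their day, and 1 on each day lay above the highest control. The change was 0.19 ± 0.24 at day 1, 0.21 ± 0.25 at day 3, 0.34 ± 0.25 at day 28 and 0.25 ± 0.14 over all days (limma adjusted p = 0.372, unadjusted 0.0951; interval -0.05 to 0.54).

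Among the target enzymes, Cyp1a1 (chromosome 9, NCBI Gene 13076), the most inducible of them, was not measurable. In heart its signal was well above background on 3 of 34 arrays, 1 each in control day 3, carbon black day 3 and control day 28, and its reference channel on 0 of 34. The background-subtracted signal in heart had a median of 8.5 and ran from -4.5 to 24, while the 153 negative control spots of an array had a median of 1 and a 95th percentile of 13. Day by day, the median signal was 8.5 in controls and -0.5 in exposed hearts at day 1, at day 3 it was 8 and 14, and at day 28 it was 9.5 and 11.5. Both arms lay near the negative controls, so no fold change is given, and a difference was not detectable at this signal.

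Cyp1b1 (chromosome 17, NCBI Gene 13078), a hydroxylase of hydrocarbons and oestrogens, was well above background on all 34 arrays. At day 1 its log2 ratio ran from -1.27 through a median of 0.11 to 0.74 in controls and from -0.66 through 0.07 to 1.20 in exposed hearts. At day 3 the controls ran from -1.31 through 0.08 to 0.53, and the exposed arrays were at 0.03, -0.95, -0.38, 0.95 and 0.23. At day 28 the controls ran from -1.28 through 0.08 to 0.70, and the exposed arrays were at 0.37, 0.57, -0.33, -0.11 and 1.00. The lowest control of each day was 1 of the 5 arrays with low adipocyte markers, and on each day 1 control lay below all exposed arrays. The all-days change was 0.21 ± 0.22 (limma adjusted p = 0.683; interval -0.24 to 0.65), smaller than the SD between arrays of a group, which was 0.54 to 0.71.

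Nqo1 (chromosome 8, NCBI Gene 18104), a quinone reductase switched on by both the receptor and the oxidative stress factor Nrf2, had the lowest unadjusted p of the 6 genes over all days. At day 1 its log2 ratio ran from -1.91 through a median of -1.44 to 0.44 in controls and from -1.35 through -0.52 to 0.08 in exposed hearts. Of the day 1 controls, 3 lay below all exposed arrays, and the highest control lay above all of them. At day 3 the controls ran from -2.12 through -1.58 to -0.48, and the exposed arrays were at -0.45, -0.33, -0.83, -1.86 and -0.61. At day 28 the controls ran from -1.81 through -1.28 to 0.30, and the exposed arrays were at -0.96, -1.13, -0.05, -0.39 and -0.62. The highest control on each day was again an array with low adipocyte markers. Of the exposed arrays, 4 of 6, 4 of 5 and 4 of 5 lay above the control mean at days 1, 3 and 28.

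The change of Nqo1 was 0.57 ± 0.39 at day 1, 0.56 ± 0.41 at day 3 and 0.47 ± 0.41 at day 28, and did not pass on any day. Over all days the log2 fold change was 0.54 ± 0.23, a fold of 1.45 (limma adjusted p = 0.208, unadjusted 0.0285; interval 0.06 to 1.01). Over the 18 controls the mean was -1.22 ± 0.75 (SD), and over the 16 exposed hearts it was -0.68 ± 0.57 (SD). The 3 daily changes lay close together, and the difference between them had a limma p of 0.981. Leaving out 1 array at a time moved the day 28 change from 0.33, without carbon black day 28 replicate 3, to 0.75, without control day 28 replicate 2, both arrays with low adipocyte markers. The day 1 change was highest, 0.89, without control day 1 replicate 2, which was another such array. From the Agilent processed signals, the all-days change was 0.24 ± 0.26 (limma adjusted p = 0.745), smaller than its SE, and under median centring it was 0.81 ± 0.26 (adjusted p = 0.0515).

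**Figure D2:**
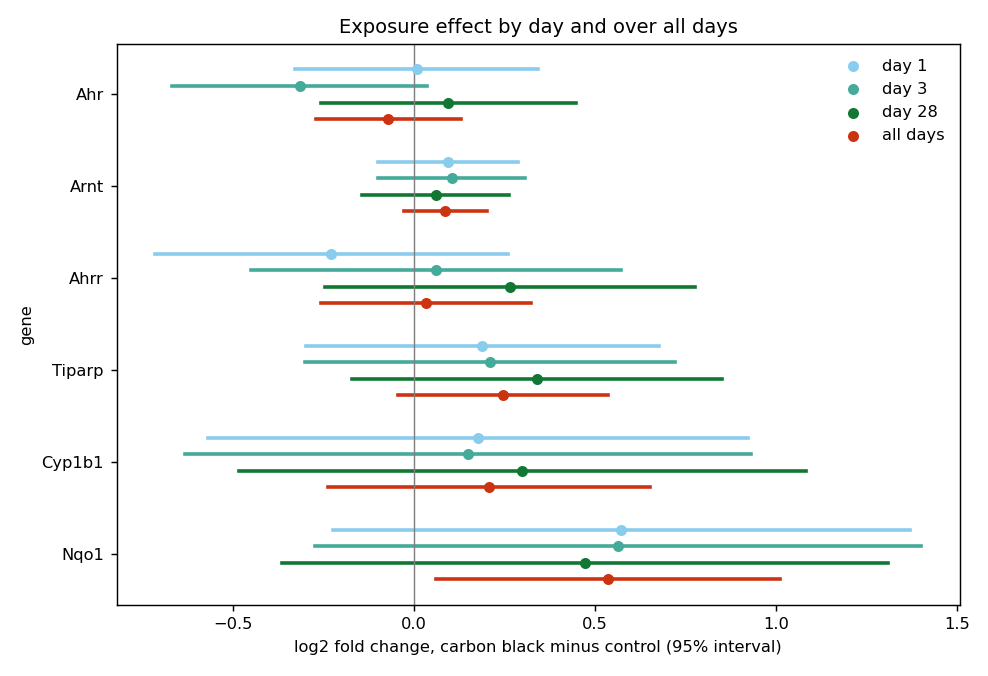
Log2 fold change of each gene, carbon black minus control, with its 95% interval, by day (blue to green) and over all days (red). All intervals cross 0 except that of Nqo1 over all days, 0.06 to 1.01, whose p-value did not pass after adjustment over 19798 genes.

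Counted together, 0 of the 6 genes passed an adjusted limma p of 0.05 on day 1, day 3 or day 28, where 0% of all genes tested passed on each day. Over all days 0 of 6 passed, where 1.94% of all genes did. At an unadjusted p of 0.05, the counts were 0 of 6 on each day, where 7.22%, 11.1% and 2.98% of all genes passed, and 1 of 6 over all days, where 18.3% of all genes passed. The change was above 0 for 5 of 6 genes at day 1, 5 of 6 at day 3, 6 of 6 at day 28 and 5 of 6 over all days, with medians of 0.13, 0.13, 0.28 and 0.15. Over all genes tested, 49%, 52.8%, 51.9% and 50.4% were above 0, with medians of -0.0041, 0.01, 0.0069 and 0.001. The difference of the effect between days passed for 0 of 6 genes, where 0 of 19798 passed; at an unadjusted limma p of 0.05 it held for 0 of 6, where 1% of all genes did. The arrays of the 2 arms did not overlap for 0 of 6 genes on each day, where this held for 0.359%, 0.899% and 0.379% of all genes at days 1, 3 and 28.

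Among the vehicle controls alone, none of the 6 genes passed between any pair of days in limma, and 0% of all genes did; at an unadjusted p of 0.05, 0 of 6 passed for day 3 minus day 1, day 28 minus day 1 and day 28 minus day 3, where 2.04%, 1.18% and 4.45% of all genes did. The largest of these differences among the 6 genes was 0.28 ± 0.39, for Nqo1 from day 3 to day 28. When the 6 groups were put in order of their means for each gene, no group differed from its neighbour in that order by more than the pooled SD of the pair. Sorting brings close means next to each other, and the SD is that of single arrays, so this does not show that the groups were alike. For Nqo1 the order was carbon black day 1, day 28 and day 3, followed by control day 28, day 1 and day 3. For Ahr it began with control day 3 (-1.01) and ended with carbon black day 3 (-1.33).

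The spread within groups was shared between genes. Since the 5 arrays with low adipocyte markers formed a cluster of their own, correlations were taken over the other 29 arrays, as deviations from the group mean, with permutations within groups and adjustment over the 15 pairs of genes. This set of arrays was chosen after the data were seen, in place of all 34. Over all 34, which pool both clusters, the same 6 pairs passed, with r from -0.88 for Cyp1b1 with Nqo1 to 0.76 for Ahrr with Nqo1. Of these 15 pairs over the 29 arrays, 6 passed, and they joined Ahrr, Tiparp, Cyp1b1 and Nqo1, while no pair with Ahr or Arnt passed. Cyp1b1 and Nqo1 ran opposite, with r = -0.76 (permutation p = 3e-05, adjusted 0.00045) and rho = -0.73 (permutation p = 0.00013). Ahrr and Nqo1 rose and fell together, with r = 0.72 (permutation p = 0.00034, adjusted 0.00127) and rho = 0.69 (permutation p = 0.00035). Cyp1b1 and Tiparp also ran together, with r = 0.74 (permutation p = 0.00022, adjusted 0.00127) and rho = 0.64 (permutation p = 0.00141).

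The other 3 pairs that passed ran opposite. Ahrr and Tiparp had r = -0.71 (permutation p = 0.00032, adjusted 0.00127) and rho = -0.66 (permutation p = 0.0007), and Ahrr and Cyp1b1 had r = -0.71 (permutation p = 0.00052, adjusted 0.00156) and rho = -0.54 (permutation p = 0.00918). Tiparp and Nqo1 had r = -0.61 (permutation p = 0.00355, adjusted 0.00887) and rho = -0.54 (permutation p = 0.00881). Without the 2 arrays farthest from the median, r was -0.69 for Cyp1b1 with Nqo1, 0.66 for Ahrr with Nqo1, 0.65 for Cyp1b1 with Tiparp, -0.68 for Ahrr with Tiparp, -0.60 for Ahrr with Cyp1b1 and -0.48 for Tiparp with Nqo1. With slide means removed, over all 34 arrays, 6 of 15 pairs passed, among them Cyp1b1 with Nqo1 at r = -0.89. Thus 2 receptor targets, Cyp1b1 and Nqo1, ran in opposite directions between arrays of the same group, and the pair of repressors did so too.

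The same 4 genes followed the adipocyte score. Of 72 relations between the 6 genes and 12 marker scores over the 29 arrays, Cyp1b1 had the highest r by size, 0.78 (permutation p = 4e-05, adjusted 0.00288; rho = 0.75, permutation p = 7e-05). Ahrr had r = -0.71 (permutation p = 0.0004, adjusted 0.0144; rho = -0.66, permutation p = 0.00093). Nqo1 had r = -0.67 (permutation p = 0.00175, adjusted 0.0228; rho = -0.63, permutation p = 0.00272). Tiparp had r = 0.65 (permutation p = 0.0019, adjusted 0.0228; rho = 0.65, permutation p = 0.00088). Without the 2 arrays farthest from the median score, r was 0.71 for Cyp1b1, -0.62 for Ahrr, -0.58 for Nqo1 and 0.55 for Tiparp. With slide means removed, r was 0.90 for Cyp1b1, -0.86 for Ahrr, -0.76 for Nqo1 and 0.69 for Tiparp. Other scores passed too in that setting, so the relation was not particular to adipocyte markers. Among them, the smooth muscle and fibroblast scores had r of -0.76 and -0.69 with Ahrr, 0.62 and 0.67 with Tiparp, and 0.55 and 0.74 with Cyp1b1. The airway and alveolar score had r = -0.64 with Nqo1, and the liver score -0.71 with Arnt. With the adipocyte score and slide means kept, Ahr (r = 0.15) and Arnt (r = 0.05) did not pass.

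Nqo1 also followed the cardiomyocyte score, with r = 0.66 (permutation p = 0.00082, adjusted 0.0197; rho = 0.59, permutation p = 0.00258) and 0.49 without the 2 farthest arrays. It ran against the T and B cell score, with r = -0.57 (permutation p = 0.00124, adjusted 0.0223; rho = -0.59, permutation p = 0.00257) and -0.49 without the 2 farthest arrays. The cardiomyocyte score, over 6 of 6 markers, ran by group from -0.55 to 0.07 and -1.23 to 0.89 in controls and exposed hearts at day 1, from -0.90 to 0.38 and -0.21 to 0.28 at day 3, then from -0.49 to 0.17 and -0.03 to 0.26 at day 28. The T and B cell score, over 4 of 5 markers, ran from -0.25 to 0.35 and -0.26 to 1.18 at day 1, -0.42 to 0.78 and -0.41 to 1.42 at day 3, and -0.30 to 2.30 and -0.35 to 1.47 at day 28. All 6 cardiomyocyte markers were above 0 in the exposed minus control change over all days, with a median of 0.13, where 50.4% of all genes were above 0. This was not particular to them. All tested markers were also above 0 for the atrial (4, median 0.63), adipocyte (5, 0.37), mesothelial (3, 0.37) and red cell (3, 0.15) lists, while the remaining lists were mixed. Of the 6 cardiomyocyte markers, 1 passed, where 1.94% of all genes did: Tnni3, the inhibitory subunit of cardiac troponin, at 0.82 ± 0.22 (limma adjusted p = 0.0462). It did not pass with array position in the fit (0.48, limma adjusted p = 0.761), with slide as a fixed block (0.137) or with scan day as one (0.0756). Nor did it pass from processed signals (0.184), without the 3 arrays with high liver markers (0.173) or without the filter on dim probes (0.0679). With probes of a gene averaged, Tnni3 was at 0.58 (limma adjusted p = 0.0705). Myh6, a heavy chain of cardiac myosin, was at 0.54 ± 0.19 (limma adjusted p = 0.105, unadjusted 0.00692). The part of tissue content in the members' levels was not tested. On the 5 arrays with low adipocyte markers, which are outside these correlations, Nqo1 was the highest of its group on 5 of 5, Ahrr the highest on 4 of 5, Cyp1b1 the lowest on 4 of 5 and Tiparp the lowest on 1 of 5.

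**Figure D3:**
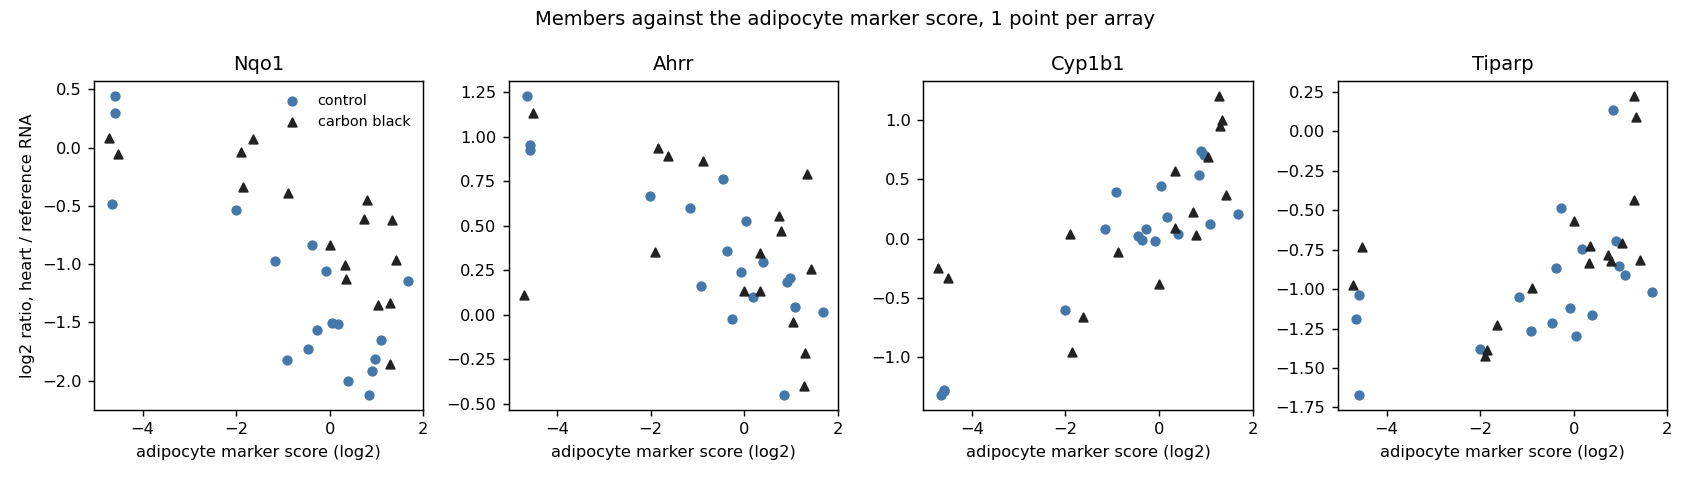
Log2 ratio of Nqo1, Ahrr, Cyp1b1 and Tiparp (vertical) against the adipocyte marker score (horizontal), 1 point per array, controls as blue circles and carbon black arrays as black triangles. The 5 arrays at scores of -4.52 or lower lie apart at the left; over the other 29, with group means removed, r was -0.67 for Nqo1, -0.71 for Ahrr, 0.78 for Cyp1b1 and 0.65 for Tiparp.

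Since the adipocyte score moved with Nqo1, the exposure effect was fitted again with the score as a covariate, a setting chosen after the data were seen. The all-days change of Nqo1 was then 0.62 ± 0.14 and passed (limma adjusted p = 0.0168), 1 of 6 members where 5.32% of all genes passed. Without the 5 arrays the change was 0.70 ± 0.19 (limma adjusted p = 0.0406), where 3.33% of all genes passed. Nqo1 was the highest of its group on each of these 5 arrays. Leaving them out removed the highest control of each day and the highest exposed array at days 1 and 28. That setting is therefore not independent of the Nqo1 values. With the score and slide both in the fit the change of Nqo1 was 0.70 ± 0.17 (limma adjusted p = 0.0584), where 0.46% of all genes passed. With the score and array position it was 0.49 ± 0.20 (limma adjusted p = 0.467), where 0% of all genes passed. The call of Nqo1 therefore held with the score alone and not with slide or array position beside it. Without the 5 arrays with low atrial markers, 4 of which are also low in adipocyte markers, the change of Nqo1 was 0.71 ± 0.19 (limma adjusted p = 0.0353), where 5.15% of all genes passed. Nqo1 was the highest of its group on each of these 5 arrays too, so this setting is likewise not independent of the Nqo1 values. The atrial score ran from -4.23 to -3.53 on those 4 arrays and was -1.33 on the other, carbon black day 3 replicate 2. The all-days changes of the other 5 genes did not pass under any of these settings.

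**Figure D4:**
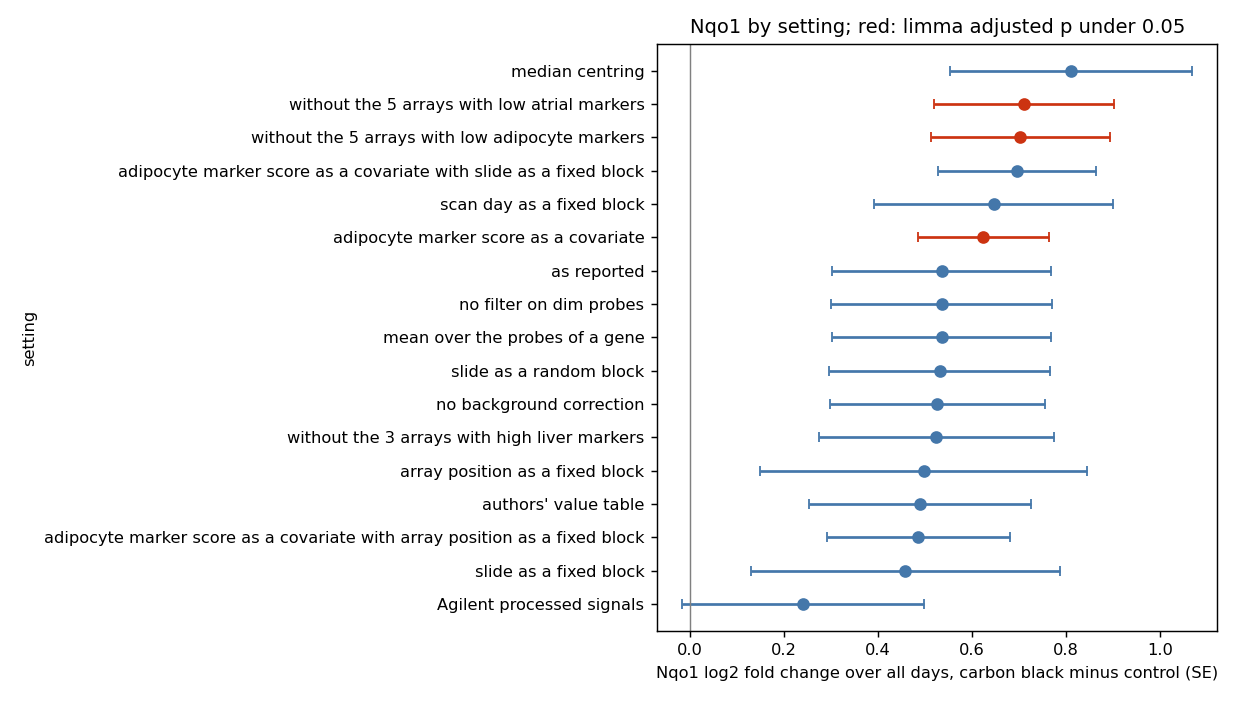
All-days log2 fold change of Nqo1, carbon black minus control, with its SE, under each setting of the analysis; red marks settings with a limma adjusted p under 0.05. The change ran from 0.24 to 0.81, and it passed in 3 settings, each of which left out or adjusted for arrays with low adipocyte or low atrial markers. These 3 settings overlap and are not separate support.

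Slides and positions gave values within a batch. On 10 slides an exposed and a control array of the same day were present. In each such pair the control lay at position 1 and the exposed array at position 4. Exposure and array position therefore cannot be told apart within these pairs. The difference in Nqo1 was above 0 on 7 of 10 slides, from -1.45 to 1.88, with a mean of 0.46 ± 1.20 (SD, n = 10; exact two-sided sign-flip test, p = 0.248, adjusted 0.496 over 6 genes). The controls on 2 of the 3 slides below 0, at -1.45 and -1.38, were arrays with low adipocyte markers, and so was the exposed array on 1 slide above 0, at 1.51. For Tiparp it was above 0 on 7 of 10 slides, with a mean of 0.36 ± 0.64 (SD, n = 10; exact sign-flip p = 0.111, adjusted 0.496). The mean for Cyp1b1 was 0.24 (5 of 10 slides above 0), for Ahr -0.11 (3 of 10), for Ahrr -0.10 (5 of 10) and for Arnt 0.02 (5 of 10), with exact sign-flip p-values from 0.223 to 0.752. At a shared array position, Nqo1 differed by 0.60 at day 1 (position 1, 5 controls and 2 exposed), 1.104 at day 3 (position 2, 2 and 2) and -0.49 at day 28 (position 3, 2 and 2).

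**Figure D5:**
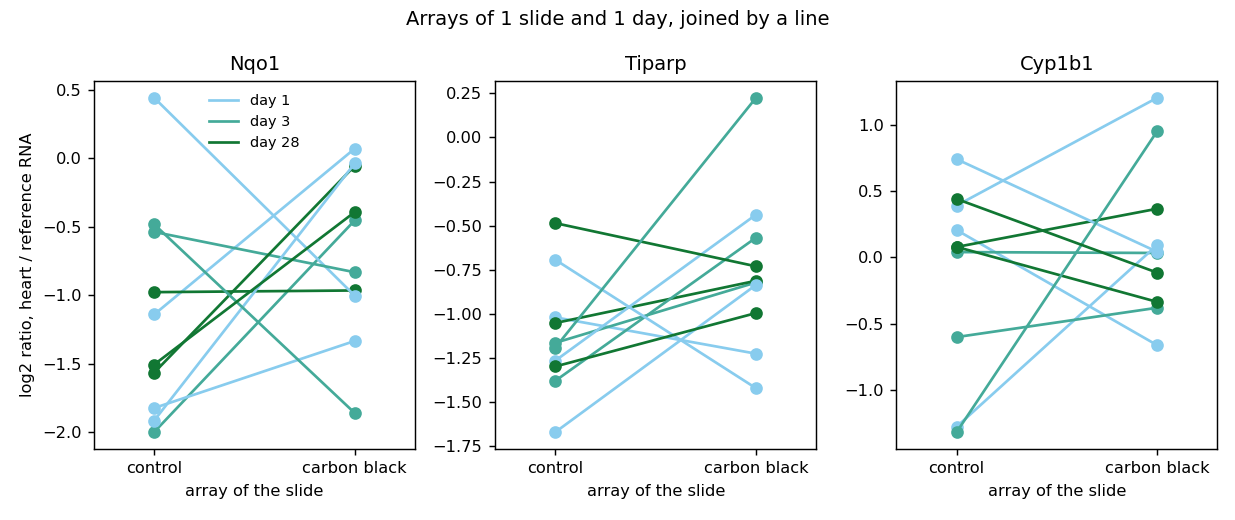
Log2 ratio of Nqo1, Tiparp and Cyp1b1 on a control and an exposed array of the same slide and day, joined by a line, for 10 slides; colours give the day. Lines for Nqo1 rose on 7 of 10 slides and lines for Cyp1b1 on 5 of 10. Each control lay at position 1 and each exposed array at position 4, so exposure and position cannot be told apart here.

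Other genes of the pathway were described from lists, over all days, with 1.94% of all genes tested passing, 18.3% at an unadjusted limma p under 0.05, and a median of 0.001. Of 6 tested members of the receptor complex, 2 were above 0 and 0 passed (0 also at an unadjusted limma p of 0.05); the median was -0.05. The heat shock protein Hsp90aa1 was at -0.15 ± 0.14 (limma adjusted p = 0.628). Of 14 other receptor targets tested, 9 were above 0, 0 passed and 4 had an unadjusted limma p under 0.05; the median was 0.05. Those with the smallest p were Selenbp1, a selenium-binding protein, at 0.38 ± 0.12 (limma adjusted p = 0.0803), Nfe2l2, which encodes Nrf2, at 0.29 ± 0.10 (0.0952), and Scin, an actin-severing protein, at 0.56 ± 0.22 (0.162). The classical liver targets Cyp1a2 and Aldh3a1 were well above background on 1 and 0 arrays and were not tested.

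Of 9 PAS proteins and coactivators, 4 were above 0 and 1 passed: Ncoa1, a coactivator of nuclear receptors, rose by 0.46 ± 0.12 (limma adjusted p = 0.0460). Of 9 tested Nrf2 targets, 5 were above 0, 2 rose and 1 fell. Glutathione reductase (Gsr) rose by 0.35 ± 0.07 (limma adjusted p = 0.0317) and the glutathione transferase Gstm1, which has close paralogs that its probe may not tell apart, by 0.68 ± 0.15 (0.0349). Sulfiredoxin (Srxn1) fell by 0.29 on the log2 scale (limma adjusted p = 0.0450), and under median centring it was at 0.07. None of these 4 passed with array position in the fit, where the change was 0.34 for Gsr (limma adjusted p = 0.564), 0.29 for Gstm1 (0.764), 0.15 for Ncoa1 (0.872) and -0.26 for Srxn1 (0.617). Nor did any of the 4 pass with slide as a fixed block (limma adjusted p from 0.125 to 0.340), with scan day as one (0.0689 to 0.0872) or from processed signals (0.128 to 0.414). Without the 3 control day 3 arrays with high liver markers, Gsr passed (limma adjusted p = 0.0210) and Gstm1, Ncoa1 and Srxn1 did not (0.117, 0.160 and 0.138). Ncoa1 and Srxn1 also did not pass without the filter on dim probes (limma adjusted p = 0.0635 and 0.0581) or with probes of a gene averaged (0.0549 and 0.0725). With probes averaged, the change was 0.43 for Gstm1, -0.19 for Srxn1, 0.38 for Gsr and 0.46 for Ncoa1. Of 5 enzymes that make tryptophan-derived ligands, 2 were above 0 and 0 passed (0 at an unadjusted limma p of 0.05); the smallest p-values were those of Ido2 (-0.11 ± 0.06), Kyat1 (-0.17 ± 0.10) and Tdo2 (-0.25 ± 0.17).

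The genes whose pattern over the 34 arrays was most like that of a member were taken from 8546 named genes well above background on all arrays, by Pearson's r, as a description. Nqo1 was most like Trib2 (r = 0.93), followed by Wfs1, Dnajc30, Gmnn and Bri3bp (0.91 to 0.89). Cyp1b1 was most like Ptgs1 (r = 0.88), followed by Acbd4, Ucp2, Mbp and Zfp185 (0.86 to 0.84). Tiparp was most like Gmfb (r = 0.88), followed by Tent2, Bscl2, Ppm1m and G6pdx (0.83 to 0.76). Ahr had lower values, with Ppp2r5c at 0.77 and Dcaf13, Lin54, Trib3 and Ggta1 from 0.75 to 0.73. These arrays share the differences in marker scores given above.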

How the data were processed

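Per the labels' protocols, the authors amplified 200 ng of RNA per mouse; per the file headers, the scanner software was Agilent Feature Extraction 10.1.1.1. The deposited scanner files give each spot's intensity, background and flags. In limma 3.58.1 under R 4.3.3, background correction of median intensities used normexp with an offset of 50, normalisation within arrays used loess, and spots of a probe were averaged. A probe was kept if its Cy5 signal exceeded background (Agilent's flag) in at least 0.5 of a group's arrays, with at most 3 missing values (0.0183% were missing); the brightest probe stood for a gene. Names came from RefSeq accessions (GRCm38.p6 table, names only). Fitting 6 group means left 28 residual degrees of freedom; all days is the mean of 3 day effects; Benjamini-Hochberg adjustment ran over all genes, threshold 0.05. Precision is limited by the number of arrays. Sample signals had medians of 99 to 155 per array, and 42.8% to 66.6% of spots were well above background.

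The authors' deposited value table of log2 ratios matched loess ratios without background correction (r 0.9955 to 0.9981; column medians -0.0554 to -0.0336) and served as an alternative; its scale and direction were taken from that match. Correlations used 100000 permutations within groups; the p-values for marker scores were added to a plan that gave none. Members, lists and rules were chosen with earlier results of these data known. Each of the 7 genes is named, as are genes of the pathway lists that passed, or otherwise up to 3 of the smallest p, and the 5 genes most like a member; 1 pathway list gene is not reported here. Of 72 relations with marker scores, those that passed for both Pearson and Spearman are given. The limma fit was tested on simulated data. Alternatives were background correction, scaling, slide, scan day, position, filters and left-out arrays. Plots used matplotlib 3.10.9.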

Additional observations from a re-analysis of the deposited data

Results flagged for a closer look

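Dixon's test was applied to each of 6 genes in each of 6 groups, 36 groups of values in all, and 3 had an end value far from the others; chance gives about 1 in 20. Cyp1b1 was at -1.27 in control day 1 replicate 2, where the next lowest array was at -0.01. Cyp1b1 was at -1.28 in control day 28 replicate 2, where the next lowest was at -0.02. Both arrays are among the 5 with low adipocyte markers. They were also low in atrial markers (scores of -3.89 and -3.53) and smooth muscle markers (-2.64 and -2.18). The part of any of these in the values was not tested. Tiparp was at 0.089 in carbon black day 28 replicate 5, where the next highest was at -0.73, and without that array the day 28 change of Tiparp was 0.16 in place of 0.34.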

How the results depend on the processing

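No paired analysis was possible because the replicate numbers are in accession order and pair no samples. Slides that held both arms gave values within a batch and the fit with slide as a block. On these slides each exposed array lay at position 4, where there was no control. Over all days 1 member, Nqo1, passed in 3 settings. Without the 5 arrays with low atrial markers, a set defined by marker levels in these same data, it was at 0.71 (limma adjusted p = 0.0353). With the adipocyte score as a covariate it was at 0.62 (limma adjusted p = 0.0168). Without the 5 arrays with low adipocyte markers it was at 0.70 (limma adjusted p = 0.0406). The last 2 settings were chosen after the data were seen. Of 402 alternative values, 374 kept direction and side of the threshold and 25 changed sign, none past the threshold; the cause was not tested. Ahr at day 1 was -0.12 without background correction and in the authors' value table, -0.036 with slide as a block, -0.097 without the arrays with low atrial or low adipocyte markers, -0.0016 with the score and -0.027 with score and slide. Ahr at day 3 was 0.0745 under median centring. Ahr over all days was 0.0036 from processed signals, 0.18 under median centring, 0.051 with position and 0.0499 with score and position. Ahrr at day 1 was 0.0594 without background correction, 0.0433 from processed signals and 0.045 in the value table; with slide as a block it was -0.0445 at day 3 and -0.0689 over all days. Arnt at day 1 was -0.0031 in the value table and at day 28 -0.0089 with slide and -0.0094 with score and slide. Cyp1b1 at day 1 was -0.0478 without background correction and -0.0739 in the value table, and at day 3 it was -0.0899 with the score, -0.0804 without the 5 arrays and -0.22 with score and slide. Leaving out 1 array at a time moved Ahr at day 1 from -0.15 to 0.10 and at day 28 from -0.0303 to 0.17, Ahrr at day 3 from -0.0919 to 0.24 and over all days from -0.0187 to 0.0933, Cyp1b1 at day 1 from -0.0821 to 0.34 and at day 3 from -0.0956 to 0.38, and Tiparp at day 3 from -0.0141 to 0.41; no array ended or made a call, and Nqo1 ran from 0.42 to 0.89 at day 1, 0.42 to 0.82 at day 3, 0.33 to 0.75 at day 28 and 0.49 to 0.64 over all days, and Ahr over all days from -0.12 to -0.038. The count of genes called over all days was 385 as reported, 1486 without background correction, 1490 in the value table and 1343 under median centring. It was 140 with probes averaged, 153 without the filter and 1 without the 3 arrays with high liver markers, which were all controls of day 3. With processed signals, or with slide, scan day or position as a fixed block, it was 0.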
